A study of Homo sapiens with 6 samples.

Results

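SPOP, its paralog SPOPL and the components of cullin-RING ubiquitin ligases were followed as transcripts in 6 RNA-Seq libraries. The genes were chosen by name, as the ligase to which SPOP belongs and its close relatives, with no threshold on their values. They are SPOP, SPOPL, CUL3, RBX1, CUL1, CUL2, CUL4A, CUL5, NEDD8 and CAND1. Of these 10 genes, 9 had a row of their own among the 24551 genes of the deposited tables, and NEDD8 was listed only in a row merged with its neighbor MDP1. The 9 genes all averaged 1 FPKM or more across the libraries and were among the 11865 genes tested, which reached this level. FPKM counts fragments for each kilobase of a transcript and is scaled to the number of fragments mapped, so it can be compared between genes of different length. Between libraries it also depends on what else each library holds, and values after centring on the library medians are given where they changed a result.

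A cullin-RING ligase is built on a cullin scaffold. The cullin binds a RING protein, usually RBX1, that brings in the ubiquitin-conjugating enzyme, and at its other end an adaptor that brings in the substrate. SPOP is such an adaptor: its MATH domain binds the substrate and its BTB domain binds CUL3, while SPOPL is a paralog with the same arrangement. CUL1 works with F-box proteins, CUL2 with the VHL group of receptors, CUL4A with DDB1 and its receptors, and CUL5 with SOCS box proteins. Attachment of NEDD8 to a cullin activates the ligase, and CAND1 binds cullins that lack NEDD8 and exchanges their adaptors.

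The libraries came from DU145, a prostate carcinoma cell line, and 769-P, a renal cell adenocarcinoma cell line. Each line gave 3 libraries, for a control siRNA labelled NC, for SPOP siRNA 1 and for SPOP siRNA 2. The siRNA libraries of a line were used as its 2 replicates, while each control stands alone, and nothing in the labels says that cultures were repeated, so p-values measure only the spread between libraries that received different siRNAs. The lines are single cell lines of their tissues, and no protein was measured in these files.

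The labels were checked against marker genes. PAX8, a transcription factor of the renal lineage, led the renal markers in all 3 libraries of 769-P, and CA9 was listed at 0 there. In DU145 the prostate markers KLK3, TMPRSS2 and FOLH1 were at or near 0, and NNMT led the renal markers. KRT8 and KRT18, which mark epithelial cells, led their list in both lines, and the 5 blood and endothelial markers summed to at most 0.352 FPKM. A pair of libraries stood apart at low values: of 366 olfactory receptor genes, which these cells should not use, the DU145 control had 287 above 0 and the siRNA 2 library of 769-P had 237, whereas the others had 3 to 5. The mean level of these genes was 0.345 FPKM and 0.227 FPKM in that pair. Every DU145 knockdown value rests on the DU145 control, and values with this background subtracted are given where they changed a result. The depth of the libraries is not known from FPKM; the most frequent ratio of low values put it between 0.678 and 1.41 of that of the 769-P control.

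SPOP lies on the minus strand at chr17:47676246-47755525 of GRCh37 and SPOPL on the plus strand at chr2:139259340-139331117. The coding sequences, 1122 bases in SPOP and 1176 bases in SPOPL, were identical at 75.6% of the 1122 aligned positions in the GENCODE transcripts. The stretch where they are most alike bears on whether reads, or an siRNA, could take one gene for the other, and it is printed here for both genes, with the longest run of identical bases in capitals.

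SPOP: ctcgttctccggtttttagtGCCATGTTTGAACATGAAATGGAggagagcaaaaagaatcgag

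SPOPL: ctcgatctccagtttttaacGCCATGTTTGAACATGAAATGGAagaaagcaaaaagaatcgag

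The shared run is 23 bases long, at chr17:47685249-47685271 in SPOP and chr2:139316872-139316894 in SPOPL, and in both genes the sequence printed runs from exon 7 into exon 8. Of the 1102 words of 21 bases, about the length of an siRNA, in the SPOP coding sequence, 3 occurred in that of SPOPL, and all 3 lie in this run. No word of 50 bases and no word of 100 bases, the length of a read, was shared by the transcripts. Among the 45 pairs of the 10 genes, none shared a word of 50 bases in the transcripts compared. The levels of SPOP and SPOPL could therefore be read apart at the length of the reads. The siRNA sequences were not used here, so whether either siRNA covers the shared run was not tested.

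SPOP transcript was lower in every siRNA library than in the control of its line. The DU145 libraries had 16.1 FPKM in the control, 2.77 FPKM with siRNA 1 and 2.96 FPKM with siRNA 2. Those of 769-P had 11.6 FPKM in the control, 1.53 FPKM with siRNA 1 and 1.39 FPKM with siRNA 2. The siRNA libraries of a line were close to each other and far below the control, and the lowest values of all were those of 769-P. On the log2(FPKM + 1) scale, where 1 FPKM is added to each value before the logarithm, the change was -2.18 and -2.11 in DU145 and -2.31 and -2.39 in 769-P. On this scale a gene with low values shows less than its full change. In bulk RNA, less transcript per cell and fewer cells with the transcript cannot be told apart.

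With 1 control per line few genes passed limma, and SPOP itself was not among them. The change of SPOP was -2.15 with a standard error of 0.24 in DU145 (adjusted p = 0.134 from limma) and -2.35 with a standard error of 0.24 in 769-P (adjusted p = 0.0948 from limma). The difference between these changes was 0.20 with a standard error of 0.34 (adjusted p = 0.999 from limma), and it was -0.21 after quantile normalization. At an adjusted p below 0.05, the knockdown change passed for 0.135% of all tested genes in DU145 and for 0.101% in 769-P, and the difference of the changes passed for 0.169%. None of the 9 genes passed in any of these comparisons. With an unadjusted p below 0.05, CUL2 in 769-P was the only one of the 8 genes other than SPOP in any of these 3 comparisons. At that level 6.97% of all tested genes passed in 769-P, 6.27% in DU145 and 2.74% for the difference of the changes, so 1 gene of 8 is near the background.

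A call by size was therefore used beside the test. A gene was counted when its log2(FPKM + 1) change passed 1.5-fold with each of the siRNAs, in 1 direction. SPOP was the only one of the 9 genes counted in either line. In DU145, 1.19% of all tested genes were lower and 4.72% higher by this rule, and in 769-P 3.73% were lower and 3.6% higher. At 2-fold SPOP was again the only one of the 9, where 0.329% of all tested genes were lower in DU145 and 0.565% in 769-P. With a pseudocount of 0.1 in place of 1, SPOPL and CUL2 joined SPOP in 769-P.

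**Figure D1:**
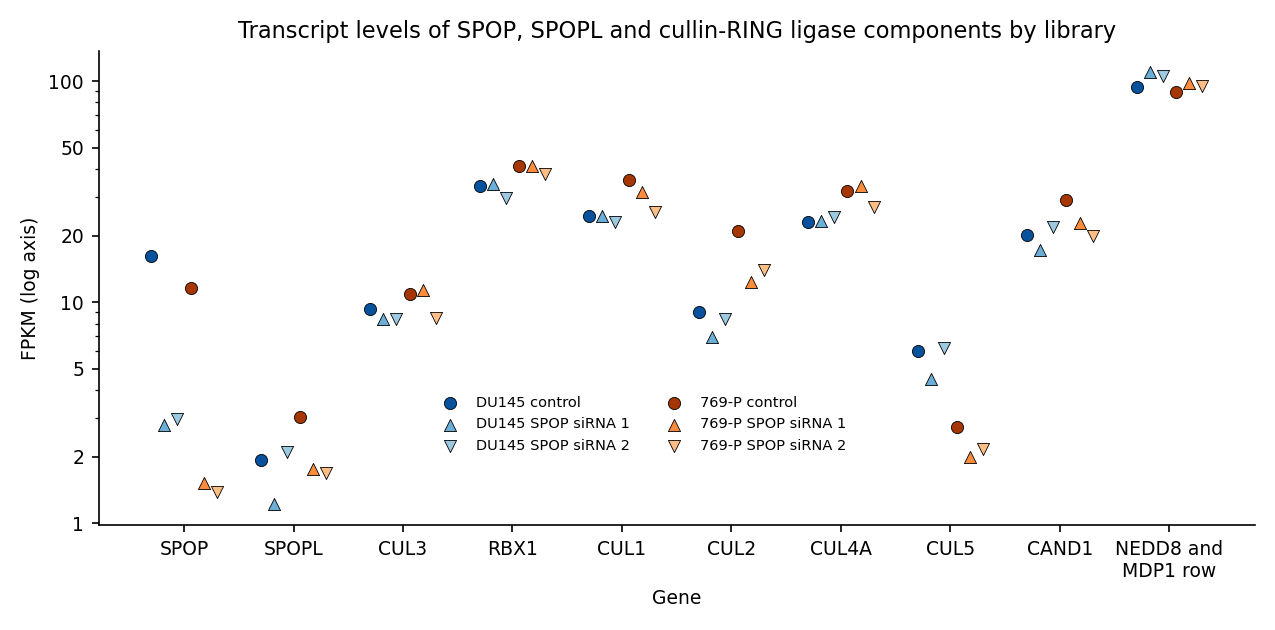
FPKM on a log axis for the 9 genes with their own row and the merged row of NEDD8 and MDP1, in each of the 6 libraries (circles, control; triangles up, siRNA 1; triangles down, siRNA 2; blue, DU145; orange, 769-P). SPOP is at 16.1 and 11.6 FPKM in the controls and between 1.39 and 2.96 FPKM with the siRNAs, CUL2 is higher in 769-P and CUL5 is higher in DU145.

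SPOPL, the paralog, was the lowest of the 9 genes in the DU145 libraries and stood next to CUL5 in 769-P. The DU145 libraries had 1.94 FPKM in the control, 1.22 FPKM with siRNA 1 and 2.09 FPKM with siRNA 2, so the control lay between the siRNAs. Those of 769-P had 3.03 FPKM in the control, 1.77 FPKM with siRNA 1 and 1.69 FPKM with siRNA 2, so both siRNA libraries were below the control by a similar amount. The log2 changes were -0.40 and 0.08 in DU145 and -0.54 and -0.59 in 769-P. In 769-P the mean change was -0.57 with a standard error of 0.30 (adjusted p = 0.718 from limma). The difference of its changes between the lines, 0.40 with a standard error of 0.42, did not pass either (adjusted p = 0.999 from limma). In neither line was SPOPL higher with both siRNAs than in the control. With the background subtracted its mean change in DU145 was 0.01, in place of -0.16.

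With SPOP so much lower, the share of SPOPL in the summed FPKM of the pair was higher in each siRNA library. This share was 10.7% in the DU145 control, 30.7% with siRNA 1 and 41.4% with siRNA 2. For 769-P it was 20.8% in the control, 53.6% with siRNA 1 and 54.8% with siRNA 2. SPOPL was thus the more abundant transcript of the pair in both siRNA libraries of 769-P and the less abundant in all libraries of DU145. The gap in 769-P was small and near the 1 FPKM filter, 1.77 against 1.53 FPKM with siRNA 1 and 1.69 against 1.39 FPKM with siRNA 2. The siRNA 2 library also had an olfactory receptor background of 0.227 FPKM. The pair together had 18.1 FPKM in the DU145 control and 3.99 FPKM and 5.06 FPKM with the siRNAs, and 14.6 FPKM in the 769-P control and 3.29 FPKM and 3.08 FPKM with the siRNAs. These shares use the values of the targeted gene, and they describe transcripts, not the adaptor proteins.

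CUL3, the cullin that SPOP binds, lay between 8.35 and 11.4 FPKM in all libraries. Its gene is at chr2:225334867-225450114. The DU145 libraries had 9.30 FPKM in the control, 8.38 FPKM with siRNA 1 and 8.35 FPKM with siRNA 2. Those of 769-P had 10.9 FPKM in the control, 11.4 FPKM with siRNA 1 and 8.51 FPKM with siRNA 2. The control of DU145 was above both siRNAs by 1 FPKM or less, and the control of 769-P lay between the siRNAs. The mean log2 change was -0.14 with a standard error of 0.27 in DU145 and -0.13 with a standard error of 0.27 in 769-P (adjusted p = 0.948 and 0.935 from limma). The ratio of SPOP to CUL3 FPKM was 1.74 in the DU145 control and 0.330 and 0.355 with the siRNAs. The same ratio was 1.06 in the 769-P control and 0.134 and 0.163 with the siRNAs. SPOP transcript was thus above that of CUL3 in the DU145 control and close to it in the 769-P control, at 11.6 against 10.9 FPKM. It was well below that of CUL3 in all 4 siRNA libraries. These ratios use the values of the targeted gene.

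RBX1, the RING subunit shared by most cullins, at chr22:41347351-41369313, was the most abundant of the 9 genes in each library. It had 33.7, 34.4 and 29.6 FPKM in the DU145 control, siRNA 1 and siRNA 2 libraries, and 41.1, 41.3 and 37.8 FPKM in those of 769-P. In both lines siRNA 1 was slightly above the control and siRNA 2 below it, with log2 changes between -0.18 and 0.03. The ratio of RBX1 to the summed FPKM of CUL1, CUL2, CUL3, CUL4A and CUL5 ranged from 0.402 to 0.509 over the 6 libraries.

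CUL1, the scaffold of the F-box ligases, at chr7:148395006-148498202, had 24.5, 24.4 and 23.1 FPKM in the DU145 control, siRNA 1 and siRNA 2 libraries, which hardly differed. Those of 769-P had 35.8, 31.6 and 25.6 FPKM, and its log2 changes were -0.18 and -0.47. The mean change there was -0.32 with a standard error of 0.23 (adjusted p = 0.760 from limma).

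CUL2, the scaffold of the VHL ligase, had 9.06 FPKM in the DU145 control, 6.92 FPKM with siRNA 1 and 8.36 FPKM with siRNA 2. Those of 769-P had 21.1 FPKM in the control, 12.4 FPKM with siRNA 1 and 13.95 FPKM with siRNA 2. Both lines had their highest CUL2 level in the control, and the gap was wider in 769-P. The log2 changes in 769-P were -0.72 and -0.56, so that siRNA 1 was past 1.5-fold and siRNA 2 was not. The mean change, -0.64 with a standard error of 0.25, did not pass (adjusted p = 0.709 from limma), nor did the difference from DU145, 0.42 with a standard error of 0.35 (adjusted p = 0.999 from limma). CUL2, at chr10:35297432-35415934, overlaps CREM on the opposite strand. The sources do not say that the libraries kept the strand of the RNA, and without it reads of the overlap cannot be told apart.

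CUL4A, the scaffold that binds DDB1, had 23.0, 23.3 and 24.2 FPKM in the DU145 control, siRNA 1 and siRNA 2 libraries, and 31.9, 33.4 and 27.0 FPKM in those of 769-P. It was the only one of the 9 genes with both siRNAs above the control in DU145, by 0.02 and 0.07 on the log2 scale, and its mean change there turned to -0.08 when the libraries were centred on their medians. CUL4A, at chr13:113862507-113921422, overlaps PCID2 on the opposite strand, with the same limit as for CUL2.

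CUL5, the scaffold of the SOCS box ligases, at chr11:107879624-107978488, had 5.99, 4.49 and 6.18 FPKM in the DU145 control, siRNA 1 and siRNA 2 libraries, and 2.72, 2.0 and 2.17 FPKM in those of 769-P. The DU145 control lay between the siRNAs, and the 769-P control was above both. CUL5 was the lowest of the 5 cullins in all 6 libraries.

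CAND1, the exchange factor, at chr12:67663138-67713733, had 20.2, 17.3 and 21.9 FPKM in the DU145 control, siRNA 1 and siRNA 2 libraries, again with the control in between. Those of 769-P had 29.1, 22.7 and 19.8 FPKM, with log2 changes of -0.34 and -0.53, and the mean of -0.44 had a standard error of 0.25 (adjusted p = 0.733 from limma). Its ratio to the summed cullins ranged from 0.250 to 0.312.

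NEDD8, at chr14:24686063-24701573, could be followed only in the row that merges it with MDP1 and the read-through NEDD8-MDP1. This row had 93.6, 109 and 105 FPKM in the DU145 control, siRNA 1 and siRNA 2 libraries and 89.6, 97.5 and 94.5 FPKM in those of 769-P. Both siRNAs were above the control in each line, by 0.22 and 0.16 on the log2 scale in DU145 and by 0.12 and 0.08 in 769-P, and neither mean passed (adjusted p = 0.891 and 0.930 from limma). The part of NEDD8 in the row is not known. Of the words of 50 bases in the NEDD8 transcript, 50 also occurred in that of the pseudogene NEDD8P1, but no word of 100 bases did.

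**Figure D2:**
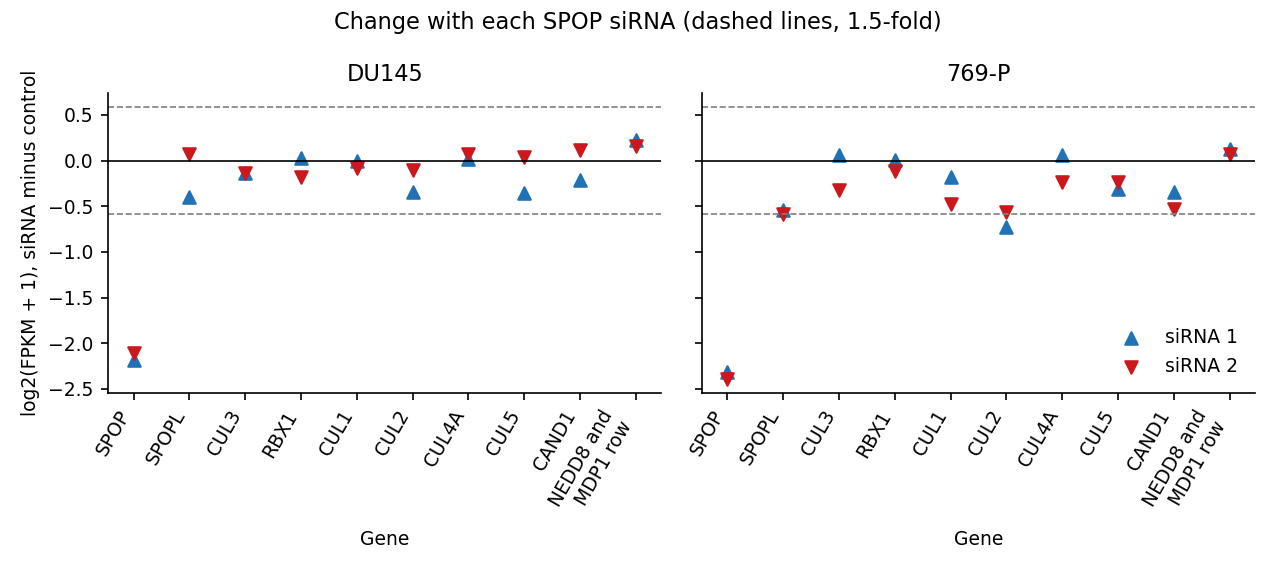
Difference in log2(FPKM + 1) between each SPOP siRNA library and the control of its line, for each gene (triangles up, siRNA 1; triangles down, siRNA 2; dashed lines, 1.5-fold). SPOP lies between -2.39 and -2.11, and all other points lie between -0.72 and 0.22.

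Among the 8 genes other than SPOP, the control was above both siRNAs for 3 in DU145 (CUL3, CUL1 and CUL2), where 22.2% of all tested genes had this order. It was above both for 5 of the 8 in 769-P (SPOPL, CUL1, CUL2, CUL5 and CAND1), where 39.5% of all tested genes had it. The median of their mean log2 changes was -0.11 against 0.09 over all tested genes in DU145, and -0.30 against -0.03 in 769-P. Of the 8 mean changes, 7 were below 0 in DU145 and 8 in 769-P, against 4608 and 6306 of all 11865 tested genes. The counts depended on the libraries used. In DU145, 4 of the 8 were below 0 without siRNA 1 and 6 without siRNA 2. In 769-P all 8 were below 0 without siRNA 1. Only 5 of the 8 were below 0 there without siRNA 2, the library that stands apart at low values. With median-centred libraries the counts were 8 in DU145 and 7 in 769-P. With the background subtracted they were 6 in DU145 and 8 in 769-P.

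The order of the cullins by FPKM changed between libraries only within the pairs of CUL1 with CUL4A and of CUL2 with CUL3. CUL1 and CUL4A were the highest pair in all 6 libraries, with 31.2% to 36.8% of the summed cullin FPKM for CUL4A and 32.9% to 36.2% for CUL1. CUL1 was ahead in the 769-P control, the DU145 control and the DU145 siRNA 1 library, and CUL4A in the other 3, so the order of this pair was not beyond the spread. CUL3 made up 12.9%, 12.4% and 11.9% of the cullins in the DU145 control, siRNA 1 and siRNA 2 libraries and 10.6%, 12.5% and 11.03% in those of 769-P. CUL2 had a larger share than CUL3 in every 769-P library, from 13.6% to 20.6%, and was close to CUL3 in DU145, from 10.3% to 12.6%. The 5 cullins summed to 71.9, 67.5 and 70.2 FPKM in the DU145 control, siRNA 1 and siRNA 2 libraries and to 102, 90.8 and 77.2 FPKM in those of 769-P.

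**Figure D3:**
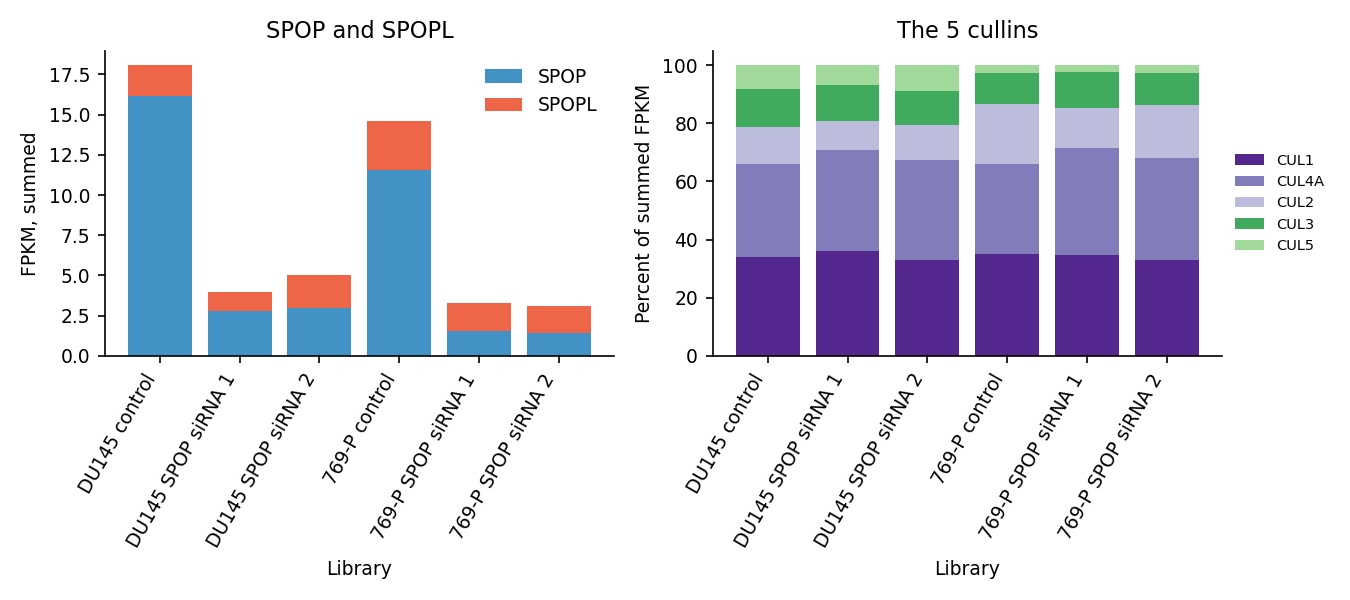
Left, FPKM of SPOP (blue) and SPOPL (red) stacked for each library; right, share of each cullin in the summed FPKM of CUL1, CUL4A, CUL2, CUL3 and CUL5 in percent. SPOPL makes up 10.7% and 20.8% of the pair in the controls and 30.7% to 54.8% in the siRNA libraries, while CUL3 stays between 10.6% and 12.9% of the cullins.

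In the tests as reported, CUL2 and CUL5 were the only genes of the 9 past an adjusted p of 0.05, and this was for the difference between the lines. CUL2 was higher in 769-P and CUL5 was higher in DU145, in every library. The lowest CUL2 level in 769-P was 12.4 FPKM and the highest in DU145 was 9.06 FPKM. The highest CUL5 level in 769-P was 2.72 FPKM and the lowest in DU145 was 4.49 FPKM. As the mean of control and siRNA levels, 769-P minus DU145, the log2 difference was 0.92 with a standard error of 0.17 for CUL2 (adjusted p = 0.0106 from limma) and -0.97 with a standard error of 0.20 for CUL5 (adjusted p = 0.0138 from limma). The lines differ in a large part of the transcriptome, with 42.1% of all tested genes past an adjusted p of 0.05, so a call for 2 of 9 genes is no more than the background. The median difference of all tested genes was -0.14, and that of the 9 genes was 0.29.

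Both calls were lost when either siRNA library of 769-P was left out, and kept when either of DU145 was left out. These fits leave 1 library in a group, and fewer of all tested genes passed in each of them, so a lost call is not particular to CUL2 or CUL5. Without a 769-P siRNA library the differences stayed between 0.88 and 0.97 for CUL2 and between -0.99 and -0.95 for CUL5. Without a DU145 siRNA library they were 0.86 and 0.98 for CUL2 and -1.07 and -0.87 for CUL5. In the 4 siRNA libraries alone, with both controls left out, both passed again, with differences of 0.72 for CUL2 (adjusted p = 0.0473 from limma) and -1.03 for CUL5 (adjusted p = 0.0221 from limma).

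RBX1, CUL1 and CUL4A also had all 3 libraries of 769-P above all 3 of DU145. With CUL2 this makes 4 of the 9 genes, where 21.2% of all tested genes had this order, and CUL5 was the only one with all 3 below, where 35.1% had that order. The differences were 0.29 for RBX1, 0.39 for CUL1 and 0.39 for CUL4A (adjusted p = 0.187, 0.114 and 0.113 from limma). After centring the libraries on their medians, which moved every difference between the lines up by 0.17, CUL1 and CUL4A passed, each with a difference of 0.56 (adjusted p = 0.0306 and 0.0293 from limma). SPOPL, CUL3 and CAND1 overlapped between the lines, with differences of 0.26, 0.21 and 0.31 (adjusted p = 0.366, 0.414 and 0.213 from limma).

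SPOP was lower in 769-P than in DU145 in the controls, 11.6 against 16.1 FPKM, and in the siRNA libraries, where the highest value of 769-P was 1.53 FPKM and the lowest of DU145 was 2.77 FPKM. Its difference between the lines was -0.55 with a standard error of 0.17 (adjusted p = 0.0502 from limma), just short of the threshold. This difference averages control and siRNA levels, so it takes in the SPOP transcript left after knockdown. The level without knockdown was 1 control library per line, which cannot be tested. Without the controls, where only the transcript left after knockdown was compared, it was -0.65 (adjusted p = 0.0472 from limma). With median-centred libraries it was -0.39 (adjusted p = 0.119 from limma). At the same difference of -0.55 it passed with a replicate block for the siRNA number (adjusted p = 0.0402 from limma) and without the trend (adjusted p = 0.0398 from limma). The call for SPOP therefore depended on the libraries, the scaling and the form of the fit.

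**Figure D4:**
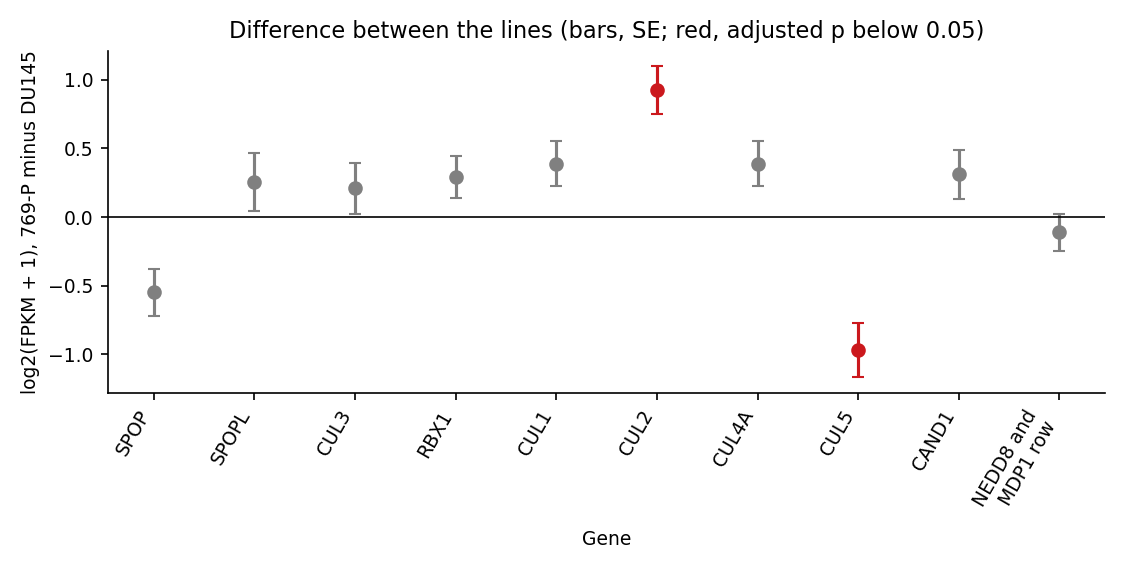
Difference in log2(FPKM + 1) between 769-P and DU145, as the mean of control and siRNA levels, with standard errors from limma (red, adjusted p below 0.05). CUL2 lies at 0.92 and CUL5 at -0.97, and the other genes lie between -0.55 and 0.39.

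Genes that followed SPOP over the 6 libraries were listed by Pearson's r of log2(FPKM + 1). The highest were GPBP1, a promoter-binding protein (r = 0.988), a merged row of the NBPF11, NBPF14, NBPF25P, NBPF8 and NBPF9 copies (r = 0.970), TBK1, a kinase of the innate immune response (r = 0.970), WDR76, a WD repeat protein (r = 0.969) and IFNGR1, a subunit of the interferon gamma receptor (r = 0.967). The 6 points share their libraries and fall into 2 controls and 4 siRNA libraries. A high r with SPOP therefore mostly restates that a gene was higher in the controls, and r also takes in the difference between the lines. GPBP1 had 8.69, 5.85 and 6.37 FPKM in the DU145 control, siRNA 1 and siRNA 2 libraries and 8.68, 5.53 and 5.31 FPKM in those of 769-P. None of the ligase genes was close to SPOP by this measure. SPOPL came first among them with r = 0.57, rank 1050 of 11864 genes, followed by CUL5 with 0.45 and CAND1 with 0.39. CUL3 had 0.21, CUL1 0.19, CUL2 0.18, RBX1 -0.06 and CUL4A -0.18. CUL1 and CUL2 had their highest level in the control of each line, so a low r does not show that a gene was no higher in the controls.

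The rest of the pathway was read from lists of 101 other genes, of which 97 had a row and 92 were tested. They hold the other cullins, RNF7, the enzymes that attach or remove NEDD8, the substrate adaptors of each cullin and the ubiquitin-conjugating enzymes. By the rule of 1.5-fold with both siRNAs, 4 of the 92 were higher and 0 lower in DU145, and 3 were higher and 3 lower in 769-P. These are 4.35% higher in DU145 and 3.26% each way in 769-P, near the 4.72%, 3.6% and 3.73% of all tested genes, so the genes named below are given as values and not as a result about the pathway. None passed limma after knockdown in either line. Between the lines, 12 of the 36 tested BTB adaptors of CUL3 (33.3%) were lower and 2 (5.56%) higher in 769-P than in DU145 at an adjusted p below 0.05, where 26.8% of all tested genes were lower and 15.3% higher. With median-centred libraries the numbers over all tested genes were 2701 lower and 2602 higher.

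KLHDC3, a substrate receptor of CUL2, had the largest of these changes in both lines. It had 39.3, 89.2 and 76.4 FPKM in the DU145 control, siRNA 1 and siRNA 2 libraries. The same libraries of 769-P had 22.6, 59.97 and 50.9 FPKM. BTBD2, a BTB domain protein, had 52.6, 105 and 98.3 FPKM in DU145 and 37.3, 67.5 and 60.4 FPKM in 769-P. These were the only 2 of the 92 genes past 1.5-fold in both lines. Neither passed limma (adjusted p = 0.715 for each in DU145, 0.546 for KLHDC3 and 0.693 for BTBD2 in 769-P).

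The other genes were past 1.5-fold in a single line. In DU145 they were CUL7, a cullin that works with the F-box protein FBXW8, and COPS8, a subunit of the COP9 signalosome that removes NEDD8. CUL7 had 9.59, 17.6 and 15.5 FPKM in the DU145 control, siRNA 1 and siRNA 2 libraries, and in 769-P, with 3.29, 5.43 and 5.17 FPKM, it was just short of the rule. In 769-P DDB2, a CUL4 receptor for damaged DNA, was higher, with 19.8, 34.5 and 32.5 FPKM. SKP2, an F-box adaptor of CUL1, was lower, with 20.9, 12.2 and 11.7 FPKM, as was CRBN, a CUL4 receptor known as the target of thalidomide, with 5.01, 2.22 and 2.24 FPKM. KLHL2, a BTB-kelch adaptor of CUL3, had 6.10, 3.23 and 1.78 FPKM there. RNF7, the RING protein that pairs with CUL5, was above the control with every siRNA, by 0.44 and 0.50 in DU145 and by 0.68 and 0.45 in 769-P on the log2 scale, and past 1.5-fold with 1 of the 4. RNF7, named after its values were seen, was lower in 769-P than in DU145 (difference -1.09, standard error 0.16, adjusted p = 0.00457 from limma). Of the 9 tested CUL2 and CUL5 adaptors, 5 were lower and 0 higher in 769-P by that test. VHL, also named after its values were seen, was 1 of them. It had 0.10, 0 and 0.21 FPKM in the 769-P control, siRNA 1 and siRNA 2 libraries, and 10.7, 14.8 and 11.9 FPKM in those of DU145. At an adjusted p below 0.05, 26.8% of all tested genes were lower in 769-P.

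**Figure D5:**
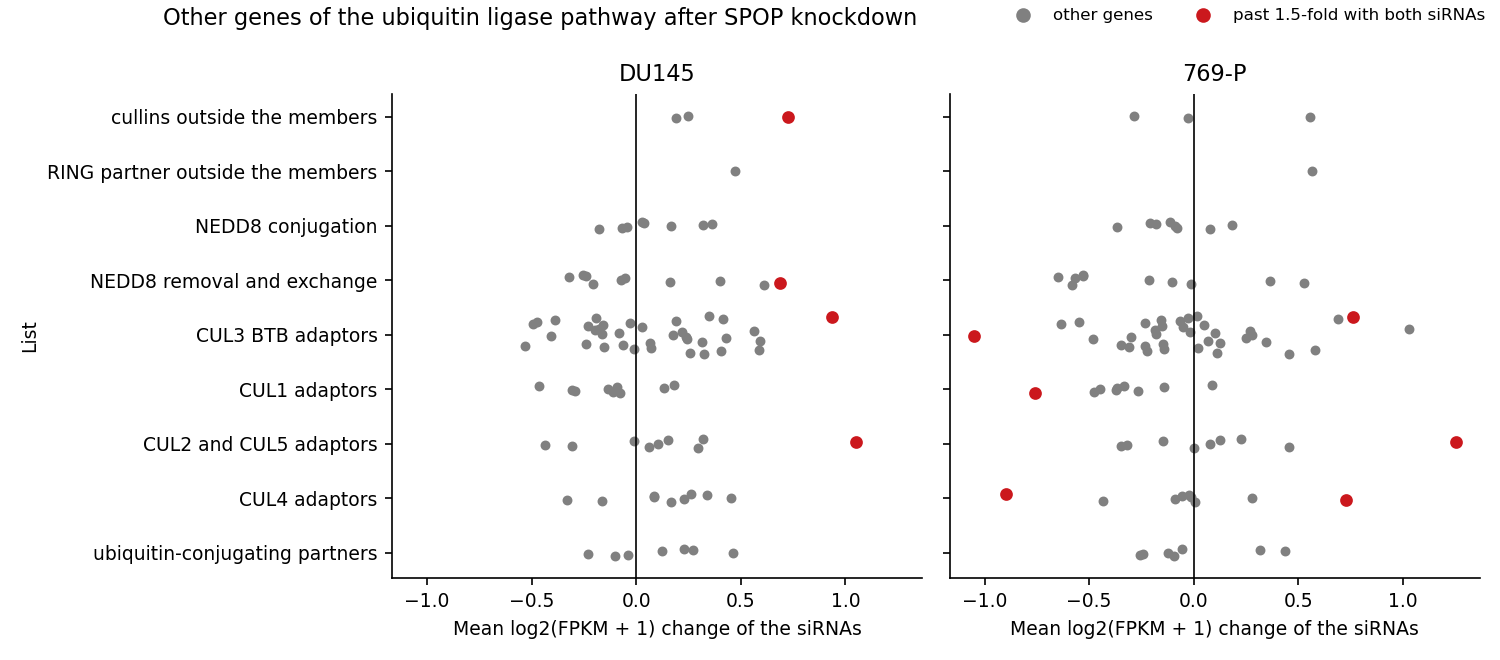
Mean log2(FPKM + 1) change of the SPOP siRNAs over the control for the 92 tested genes of the other pathway lists, by list and line (each point a gene; red, past 1.5-fold with each siRNA, in 1 direction). In DU145 the 4 red points are all to the right of 0, and in 769-P 3 are to the right and 3 to the left.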

How the data were processed

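RNA-Seq of polyadenylated RNA was analysed in 6 libraries of 4 groups. Per the labels and the study's methods, the authors aligned paired reads of 100 bp with TopHat2 (hg19, up to 2 mismatches). They deposited FPKM per gene. The methods name Cufflinks for the differential expression step. Tool versions and annotation are not given in the sources used here. The methods give 2 biological replicates per sample and the TruSeq kit, whereas the labels give 1 library per siRNA and another kit.

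Here rows of a repeated symbol were summed, 1 was added before log2, and genes averaging 1 FPKM or more were tested with limma 3.58.1 in R 4.3.3 (4 groups, trend, Benjamini-Hochberg adjustment over 11865 genes). Tables were handled with Python 3.11.15, pandas 2.3.3 and numpy 2.4.6. The code was tested on simulated data. Positions and sequences came from GENCODE on GRCh37.

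The members and lists were chosen with earlier results of these data known. Named genes are all members and the 5 genes with the highest r with SPOP. Pathway genes past 1.5-fold with both siRNAs of a line were also named (up to 3 per list and line). RNF7, VHL and the values of CUL7 in 769-P were added after their values were seen. Alternatives were a pseudocount of 0.1, no filter or a filter at 5 FPKM, quantile normalization, median centring, a replicate block, no trend, background subtraction, a 2-fold threshold, each siRNA alone and the highest row of a repeated symbol. The fit on the siRNA libraries alone was added after the data were seen. The results for some marker genes are not reported here.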

Additional observations from a re-analysis of the deposited data

Results flagged for a closer look

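DDB2, a CUL4 receptor, was singled out because both siRNAs put it below the control in DU145 (log2 changes of -0.36 and -0.30) and above it in 769-P (0.77 and 0.69). The difference of the changes, DU145 minus 769-P, was -1.06 with a standard error of 0.30, and it did not pass (adjusted p = 0.999 from limma). In the 769-P siRNA 2 library 237 of 366 olfactory receptor genes, which lie outside the comparisons, were above 0, against 4 in the 769-P control and 287 in the DU145 control.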

How the results depend on the processing

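Precision is limited by 1 control per line and by FPKM without counts. The labels number the siRNAs alike in both lines but name no shared culture or batch, and the correlation across genes of siRNA 2 minus siRNA 1 between the lines was 0.27. With a replicate block the SPOP difference between the lines stayed at -0.55 and passed (adjusted p = 0.0402 from limma), as it did without the trend (-0.55, adjusted p = 0.0398) and in the siRNA libraries alone (-0.65); the block changed no other member's call, and the genes passing for the difference of the knockdowns went from 20 to 8. Without the filter the SPOP change in DU145 (-2.15) passed (adjusted p = 0.0170), where 1186 genes did so against 16. The SPOP difference between knockdowns turned to -0.21 with quantile normalization and -0.00076 with median centring. The causes were not tested.

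The count of members past 1.5-fold in 769-P went from 1 to 3 with a pseudocount of 0.1 and was 2 with either siRNA alone. The SPOPL share in the 769-P siRNA 2 library was 55.6% with the background subtracted. Median centring moved the knockdown changes by -0.13 in DU145 and 0.08 in 769-P, and turned the split of genes passing between the lines from 1819 higher and 3175 lower in 769-P to 2602 and 2701.

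Of 433 repeated values of the other members and the merged row, 402 kept their direction and side of the threshold, and 23 changed sign, all without passing. Knockdown changes in DU145 turned to 0.015 with the background subtracted for SPOPL and to -0.10 with quantile normalization and -0.082 with centring for CUL4A, and that of RBX1 in 769-P turned to 0.023 with centring. With an siRNA left out they ranged in DU145 from -0.40 to 0.075 for SPOPL, -0.18 to 0.029 for RBX1, -0.35 to 0.038 for CUL5 and -0.21 to 0.11 for CAND1. In 769-P they ranged from -0.32 to 0.061 for CUL3, -0.12 to 0.0056 for RBX1 and -0.23 to 0.065 for CUL4A. The difference of the knockdowns turned to 0.058 with the background subtracted for CUL3, to -0.0072 with quantile normalization and -0.078 with centring for CUL4A, to -0.094 and -0.091 for CUL5 and, with centring, to -0.11 for the merged NEDD8 row. With a library left out it ranged from -0.20 to 0.18 for CUL3, -0.12 to 0.086 for RBX1, -0.022 to 0.28 for CUL4A and -0.081 to 0.31 for CUL5. The NEDD8 row's difference between the lines turned to 0.055 with centring. CUL4A passed between the lines with quantile normalization (0.48, adjusted p = 0.0485), and CUL5 did not without the filter (adjusted p = 0.0683).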
